A study of Danio rerio with 8 samples.

Results

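The genes described here are 10 regulators and transporters of the zebrafish pronephric tubule, taken by symbol from the deposited gene table: hnf1ba, hnf1bb, pax2a, pax8, gata3, lhx1a, cdh17, slc20a1a, slc12a3 and slc4a4a. All 10 were found among the 36351 rows of the table, and all 10 had enough counts to be tested. RNA came from whole embryos pooled at 26 hours post fertilisation (hpf). There were 4 wild-type pools and 4 pools of the genotype MZ osgep G177A/G177A, where MZ stands for maternal-zygotic; the latter are called mutant here. In the mutant both the mother and the embryo carried only the G177A allele of osgep, which encodes the catalytic subunit of the KEOPS tRNA-modifying complex. Libraries were made from total RNA after depletion of ribosomal RNA and held 21290942 to 27675104 expected counts each. Each replicate is a pool of embryos, the labels do not tie pools to separate clutches, and the p-values therefore measure the spread between these pools.

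The pronephros is the first kidney of fish, a pair of tubules that drain the glomerulus, recover solutes along proximal and distal segments and open at the cloaca. Its epithelium is specified from intermediate mesoderm under Pax2a, Pax8, Lhx1a and Osr1, and the homeodomain factors encoded by hnf1ba and hnf1bb are known in zebrafish to drive segment identity and tubule differentiation. Cadherin 17 is found along the tubule, and the solute carriers mark single segments. Several of these genes also serve elsewhere at this stage: pax2a and pax8 in the midbrain-hindbrain boundary, ear, thyroid and spinal interneurons, gata3 in spinal and ear cells, lhx1a in neurons, and hnf1ba and hnf1bb in gut and yolk-associated endoderm. In a whole-embryo library these sources add up, and fewer cells of a type cannot be told apart from less RNA per cell.

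Levels are in CPM, the count of a gene relative to the TMM-scaled size of its library, and differences are log2 fold changes, mutant minus wild type, with their standard error (SE). Genotype was tested with the quasi-likelihood test of edgeR. A gene was called at a p under 0.05 after Benjamini-Hochberg adjustment over all 22467 tested genes, and every adjusted p of a gene given here is of this kind unless another test is named. Of those genes, 15.8% were called higher and 16.3% lower in the mutant. CPM is not corrected for gene length, so levels of different genes are not compared. The osgep transcript was lower in the mutant, at 10.7 ± 2.25 CPM against 19.2 ± 3.24 CPM (SD, n = 4 pools each), but a count table does not show which allele was read.

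Wild-type pool 4 and mutant pool 2 stood apart in ways that reach these genes. Ribosomal protein genes took 8.64% of the counts of wild-type pool 4 and 7.84% of those of mutant pool 2, against 9.54% to 16.04% in the other 6 pools. A list of 20 genes of the yolk syncytial layer and liver, drawn up after this was seen, summed to 887, 681 and 784 CPM in wild-type pools 1 to 3 and to 5278 CPM in wild-type pool 4. In the mutant pools the same sum was 5050, 13710, 4057 and 3329 CPM. Wild-type pool 4 held the highest wild-type level for 7 of the 10 tubule genes, and mutant pool 2 the highest mutant level for 7. Results are therefore given with all pools and without wild-type pool 4, and the part of pool composition in them was not tested. Where wild-type pool 4 is high for a gene, leaving it out enlarges a rise in the mutant. Leaving out mutant pool 2 acts the other way where that pool is high, and is given for single genes. For ribosomal protein genes, mutant pool 1 stood apart in the other direction. They took 16.04% of its counts, against 7.84%, 9.54% and 10.8% in mutant pools 2, 3 and 4. Its yolk and liver sum of 5050 CPM lay between those of mutant pools 2 and 3. Mutant pool 1 held the lowest mutant level for 5 of the 10 genes and the highest for 3.

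Among the 10 genes, 4 were higher in the mutant pools (hnf1ba, hnf1bb, gata3 and slc12a3), 1 was lower (lhx1a), and 5 were not called (pax2a, pax8, cdh17, slc20a1a and slc4a4a). With all pools, 15.8% of all tested genes were called higher and 16.3% lower. A gene that was not called is not shown to be unchanged. The median log2 fold change of the 10 was 0.59, where the median of all tested genes was 0.0042. Without wild-type pool 4, cdh17 and slc20a1a were called as well, giving 6 higher and 1 lower. In that comparison 17.3% of all tested genes were called higher and 16.5% lower, and the median of the 10 rose to 0.81. With both wild-type pool 4 and mutant pool 2 left out, 5 were higher and 1 lower, beside 16.4% and 15.0% of all tested genes. The median of the 10 was then 0.72, in a fit that was not planned. Both of these medians come from fits without wild-type pool 4. Without mutant pool 2 alone, the log2 fold changes of hnf1ba, hnf1bb, gata3, cdh17, slc20a1a, slc12a3 and slc4a4a were smaller than with all pools. Those of pax2a and pax8 were higher, and that of lhx1a was less negative. Leaving out mutant pool 2, wild-type pool 2 or wild-type pool 3 reduced the higher genes to 2. Calls also fell over all genes without wild-type pool 2, where 2630 were higher, against 3560 with all pools.

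**Figure D1:**
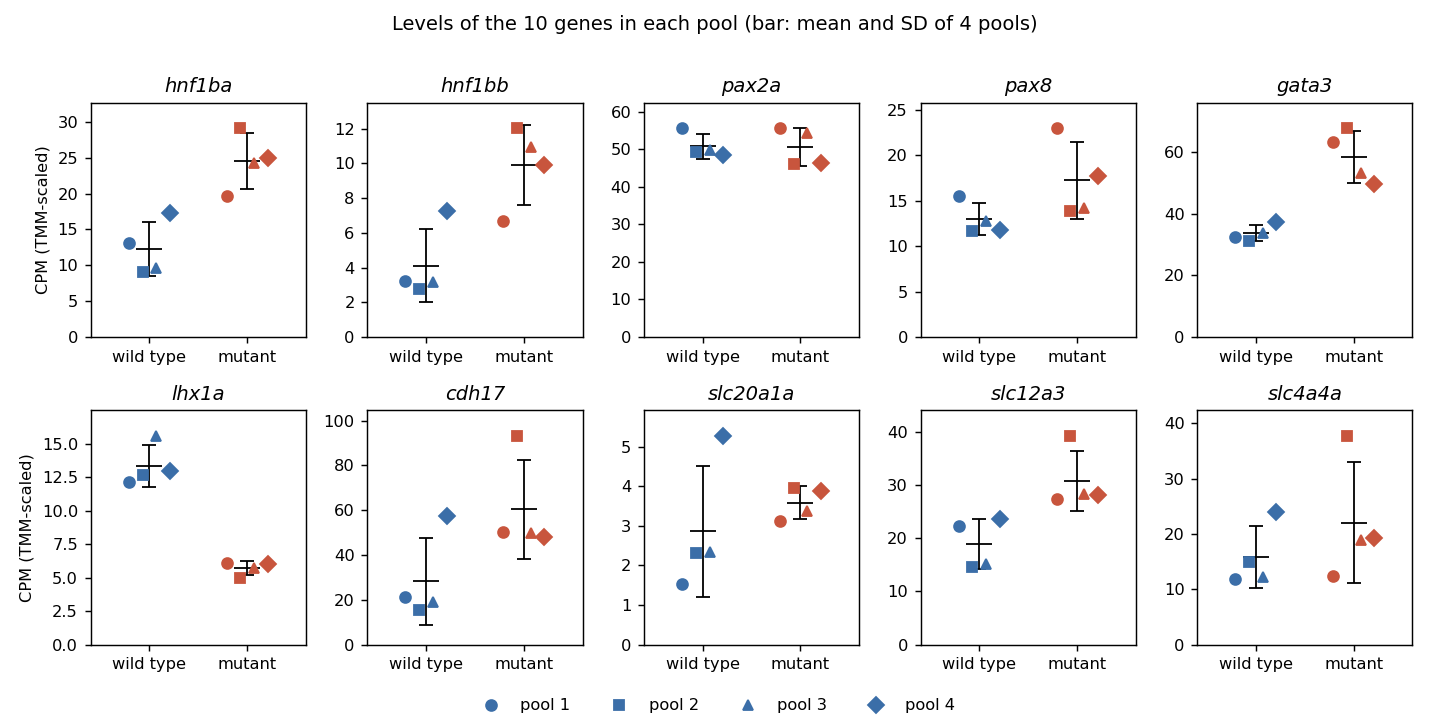
CPM (vertical axis, from 0) of each of the 10 genes in the 4 wild-type pools (blue) and the 4 mutant pools (red), with the symbol giving the pool number and the bar the mean and SD of 4 pools. The lhx1a points separate downward (5.00 to 6.10 against 12.1 to 15.6 CPM), gata3 separates upward, pax2a overlaps throughout, and wild-type pool 4 of cdh17 sits at 57.3 CPM among the mutant values.

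Both hnf1ba and hnf1bb were higher in the mutant. hnf1ba (ENSDARG00000006615) measured 13.2, 9.05, 9.57 and 17.3 CPM in wild-type pools 1 to 4 and 19.7, 29.2, 24.3 and 24.99 CPM in mutant pools 1 to 4. Every mutant pool lay above every wild-type pool, with wild-type pool 4 the nearest to mutant pool 1. Genes whose genotypes do not overlap in this direction made up 16.0% of all tested genes. The log2 fold change of hnf1ba was 1.00 (SE 0.22, adjusted p = 0.00924), and 1.21 (SE 0.19, adjusted p = 0.00244) without wild-type pool 4. Without mutant pool 2 it was 0.91 (SE 0.24, adjusted p = 0.0252).

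Its paralog hnf1bb (ENSDARG00000022295) measured 3.23, 2.78, 3.19 and 7.24 CPM in wild type, against 6.69, 12.04, 10.95 and 9.89 CPM in the mutant. Wild-type pool 4 stood 2.36-fold above the mean of the other wild-type pools and exceeded mutant pool 1, so the genotypes overlapped in that pool. Its log2 fold change was 1.26 (SE 0.34, adjusted p = 0.0202). Without wild-type pool 4 it was 1.69 (SE 0.23, adjusted p = 0.00146). The call ended without wild-type pool 1, 2 or 3 or mutant pool 2 or 3, where the adjusted p lay between 0.0504 and 0.0611.

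The Pax genes, which act upstream in tubule specification, were not called. pax2a (ENSDARG00000028148) measured 55.5, 49.2, 49.9 and 48.3 CPM in wild type, against 55.6, 45.9, 54.2 and 46.4 CPM in the mutant. The genotypes overlapped over their whole range, with means of 50.7 ± 3.28 and 50.5 ± 5.09 CPM. The log2 fold change of pax2a was −0.0054 with an SE of 0.098, the tightest estimate among the 10 genes. pax8 (ENSDARG00000015879) measured 15.5, 11.7, 12.8 and 11.8 CPM in wild type, against 23.0, 13.9, 14.2 and 17.8 CPM in the mutant. The highest wild-type pool of pax8 exceeded the lowest pair of mutant pools, and the log2 fold change was 0.41 (SE 0.19, adjusted p = 0.124). pax8 was called in 1 alternative, a fit that included each library's share of ribosomal protein counts (log2 fold change 0.50, adjusted p = 0.00181), where 25.1% of all tested genes were called higher and 27.0% lower.

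gata3 and lhx1a moved in opposite directions, and neither gained nor lost its call in any alternative tried. gata3 (ENSDARG00000016526), a zinc-finger factor of the pronephric duct as well as of neurons and ear, measured 32.5, 31.3, 33.8 and 37.2 CPM in wild type, against 63.3, 67.8, 53.1 and 49.8 CPM in the mutant. Its genotypes did not overlap, as in the same direction in 16.0% of all tested genes. The lowest mutant pool stood above the highest wild-type pool by more than the wild-type SD of 2.55 CPM. The log2 fold change of gata3 was 0.79 (SE 0.12, adjusted p = 0.00148), a 1.74-fold difference.

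lhx1a (ENSDARG00000014018), a LIM-homeodomain factor of intermediate mesoderm and of several neuron classes, measured 12.1, 12.7, 15.6 and 12.96 CPM in wild type, against 6.10, 5.00, 5.71 and 6.03 CPM in the mutant. It is the only gene of the 10 with every mutant pool below every wild-type pool, a pattern shared with 17.6% of all tested genes. The wild-type level was 2.34-fold the mutant level. The log2 fold change of lhx1a was −1.22 (SE 0.13, adjusted p = 0.000338), and between −1.27 and −1.14 when single pools were left out. Wild-type pool 4 was 0.962 times the mean of the other wild-type pools for this gene.

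cdh17 (ENSDARG00000005112), a cadherin of the tubule epithelium, had the widest spread among wild-type pools. It measured 21.2, 15.4, 18.96 and 57.3 CPM in wild type, against 50.1, 93.4, 50.1 and 47.98 CPM in the mutant. Wild-type pool 4 was 3.096-fold above the mean of the other wild-type pools and lay within the mutant range, while the other wild-type pools lay below all mutant pools. With all pools the log2 fold change of cdh17 was 1.096 (SE 0.43, adjusted p = 0.0857), which was not called. Without wild-type pool 4 it was 1.70 (SE 0.27, adjusted p = 0.00279), and with mutant pool 2 also left out it was 1.42 (adjusted p = 0.000743). Without mutant pool 2 alone it was 0.81 (SE 0.43, adjusted p = 0.208), not called. DESeq2 called cdh17 with all 8 pools (log2 fold change 1.11, adjusted p = 0.0317), in a test that called 15.6% of genes higher and 15.1% lower. With the ribosomal protein share in the edgeR fit it was 0.99 (adjusted p = 0.0874).

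The solute carriers gave 1 call in 3. slc12a3 (ENSDARG00000013855), the thiazide-sensitive sodium-chloride cotransporter of the late distal tubule, measured 22.4, 14.7, 15.1 and 23.6 CPM in wild type, against 27.5, 39.4, 28.5 and 28.1 CPM in the mutant. All mutant pools lay above all wild-type pools, as in 16.0% of all tested genes. For slc12a3 the log2 fold change was 0.70 (SE 0.20, adjusted p = 0.0261). The call ended without wild-type pool 2, wild-type pool 3 or mutant pool 2 (adjusted p from 0.0608 to 0.0740).

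slc4a4a (ENSDARG00000013730), a sodium bicarbonate cotransporter of the proximal tubule, measured 11.9, 14.96, 12.2 and 23.9 CPM in wild type, against 12.4, 37.8, 18.8 and 19.2 CPM in the mutant. The highest pools were wild-type pool 4 and mutant pool 2, and mutant pool 1 lay inside the wild-type range. Its log2 fold change was 0.48 (SE 0.36, adjusted p = 0.345), and it was 0.096 without mutant pool 2 and 0.76 without wild-type pool 4 (adjusted p = 0.845 and adjusted p = 0.132). slc20a1a (ENSDARG00000020114), a sodium phosphate cotransporter of the proximal tubule, had the fewest counts, 35, 59, 49 and 135 in wild type and 74, 89, 88 and 109 in the mutant. These counts correspond to 1.53, 2.31, 2.33 and 5.29 CPM in wild type, against 3.11, 3.97, 3.37 and 3.89 CPM in the mutant. Wild-type pool 4 of slc20a1a was the highest of all 8 pools, and every other wild-type pool lay below every mutant pool. With all pools it differed by a log2 fold change of 0.32 (SE 0.36, adjusted p = 0.546), and 0.80 (SE 0.23, adjusted p = 0.0317) without wild-type pool 4. It was 0.11 (adjusted p = 0.847) without wild-type pool 1, and 0.75 (adjusted p = 0.0602) with wild-type pool 4 and mutant pool 2 both left out, neither of them called.

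**Figure D2:**
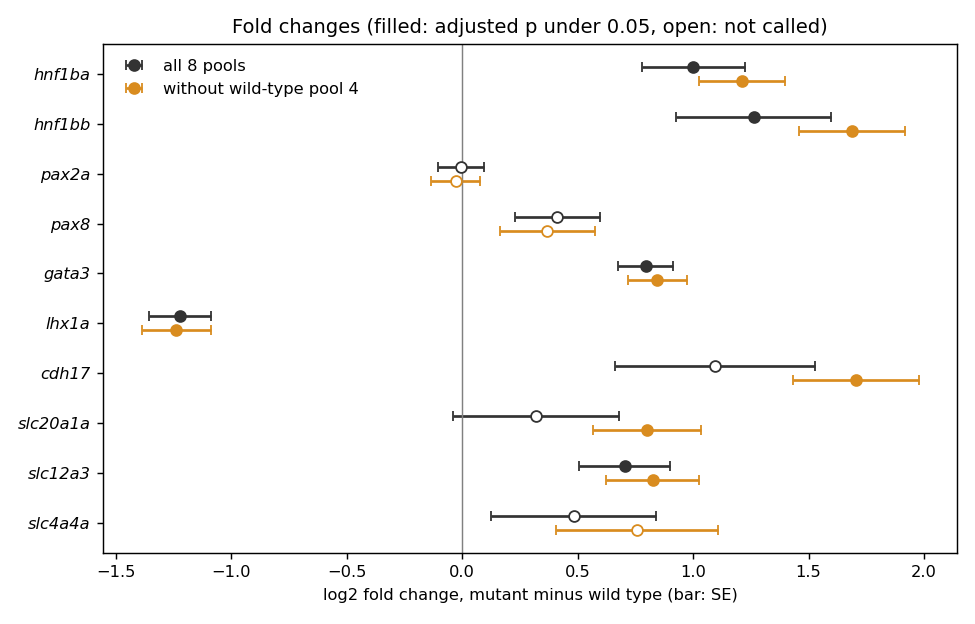
Log2 fold change of each gene (horizontal axis, mutant minus wild type, bar ± SE) with all 8 pools (black) and without wild-type pool 4 (orange), filled where the adjusted p was under 0.05. cdh17 moves from 1.096 to 1.70 and slc20a1a from 0.32 to 0.80, while lhx1a (−1.22 and −1.24), gata3 (0.79 and 0.84) and pax2a (−0.0054 and −0.029) stay close.

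The genes varied between pools in different degrees. In wild type the coefficient of variation was 6.46% for pax2a, 7.56% for gata3 and 11.7% for lhx1a. It was 51.0% for hnf1bb, 57.8% for slc20a1a and 69.3% for cdh17. Wild-type pool 4 is part of that spread. Over the mean of the other wild-type pools it was raised by 1.63-fold for hnf1ba, 1.84-fold for slc4a4a, 2.57-fold for slc20a1a and 3.096-fold for cdh17. pax2a (0.938), pax8 (0.883) and lhx1a (0.962) were not raised there. For slc12a3 the wild-type SD was 4.68 CPM with wild-type pool 4 and 4.31 CPM without it. In mutant pool 2, slc4a4a stood 2.25-fold and cdh17 1.89-fold above the mean of the other mutant pools, and pax8 at 0.758 times it. The same pools were high for atp1a1a.4, a sodium pump subunit gene of tubule and ionocytes (86.3 CPM in wild-type pool 4 against 25.8 to 38.98 in the others), and for slc12a1, a distal tubule cotransporter gene (3.17 against 0.437 to 0.667 CPM).

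**Figure D3:**
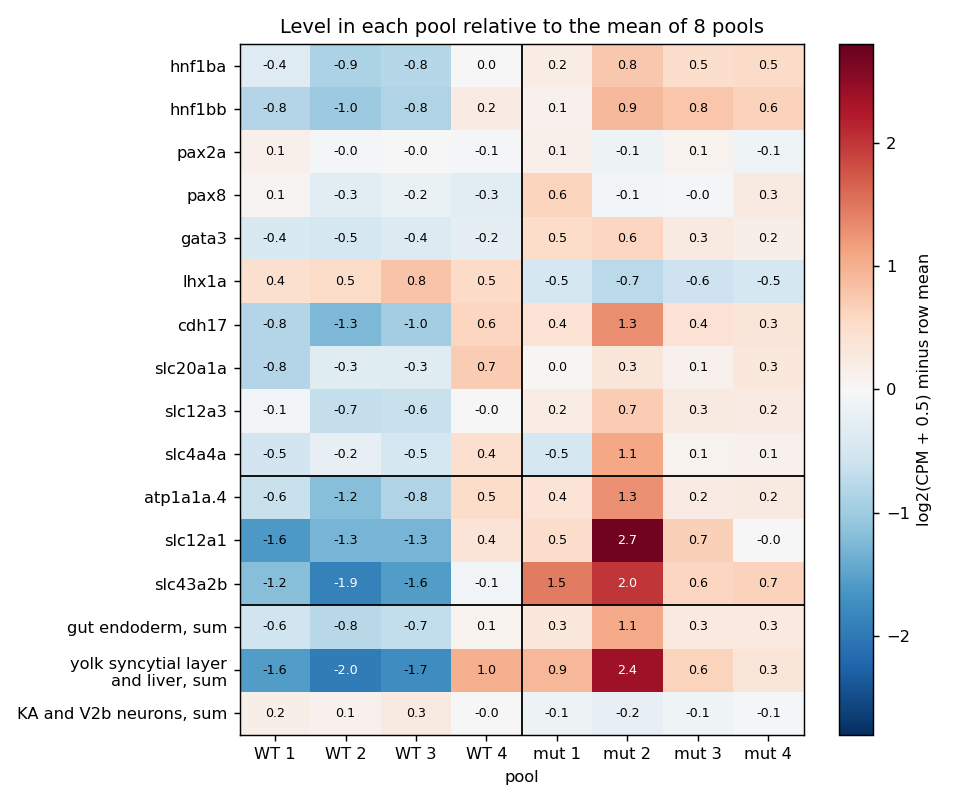
Level of each gene or summed list (rows) in each pool (columns), as log2(CPM + 0.5) minus the mean of the row over 8 pools, with red above and blue below that mean. cdh17 reads 0.6 in wild-type pool 4 and 1.3 in mutant pool 2, the summed yolk syncytial layer and liver list reads 1.0 and 2.4 there, and pax2a stays within 0.14 of its mean in every pool.

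In 8 pairs, ratios compared a gene with a relative inside the same library. The ratio is the log2 of one CPM over the other, with 0.5 CPM added to each, and was tested with an exact two-sided permutation test over the 8 pools. The smallest p that 4 against 4 pools allow is 0.0286, and no ratio passed after Benjamini-Hochberg adjustment over the 8 pairs. A ratio at that smallest p cannot pass unless several others reach it too. Not passing therefore does not show that a ratio was alike in the genotypes. The hnf1ba/hnf1bb ratio was 1.51 ± 0.28 in wild type and 1.29 ± 0.16 in the mutant (SD, n = 4 each, exact permutation test p = 0.229, adjusted p = 0.305). The ratio differed by −0.23, and the test detected no difference between the responses of the paralogs with these pools.

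For lhx1a/lhx1b the ratio went from 0.60 ± 0.21 to 0.0055 ± 0.12, without overlap (exact permutation test p = 0.0286, adjusted p = 0.114). The paralog lhx1b was itself lower in the mutant, from 8.70 ± 1.43 to 5.72 ± 0.937 CPM (log2 fold change −0.60, adjusted p = 0.0313). That call of lhx1b ended in 6 of the 8 fits that left out a pool, all but those without wild-type pool 4 or mutant pool 1 (adjusted p from 0.0605 to 0.0910). For slc4a4a/slc4a4b the ratio went from −0.14 ± 0.22 to 0.76 ± 0.30, also without overlap (exact permutation test p = 0.0286, adjusted p = 0.114). slc4a4b stood at 17.1 ± 3.62 CPM in wild type, against 12.2 ± 3.41 CPM in the mutant and was not called, with a log2 fold change of −0.49, opposite in sign to that of slc4a4a. slc4a4b was called with the ribosomal protein share in the fit (−0.66, adjusted p = 0.000136), where 25.1% of all tested genes were called higher and 27.0% lower.

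The other pairs overlapped between genotypes. pax2a/pax8 was 1.94 ± 0.096 in wild type and 1.55 ± 0.29 in the mutant (exact permutation test p = 0.0571, adjusted p = 0.152). gata3/gata2a was 1.02 ± 0.13 and 1.24 ± 0.17 (exact permutation test p = 0.114, adjusted p = 0.229). gata2a, the relative of gata3, rose with it, from 16.4 ± 1.94 to 24.4 ± 1.25 CPM (log2 fold change 0.57, adjusted p = 0.00541). Raw p for pax8/pax5, pax2a/pax2b and slc20a1a/slc20a1b ran from 0.143 to 0.743 in the same exact permutation test.

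**Figure D4:**
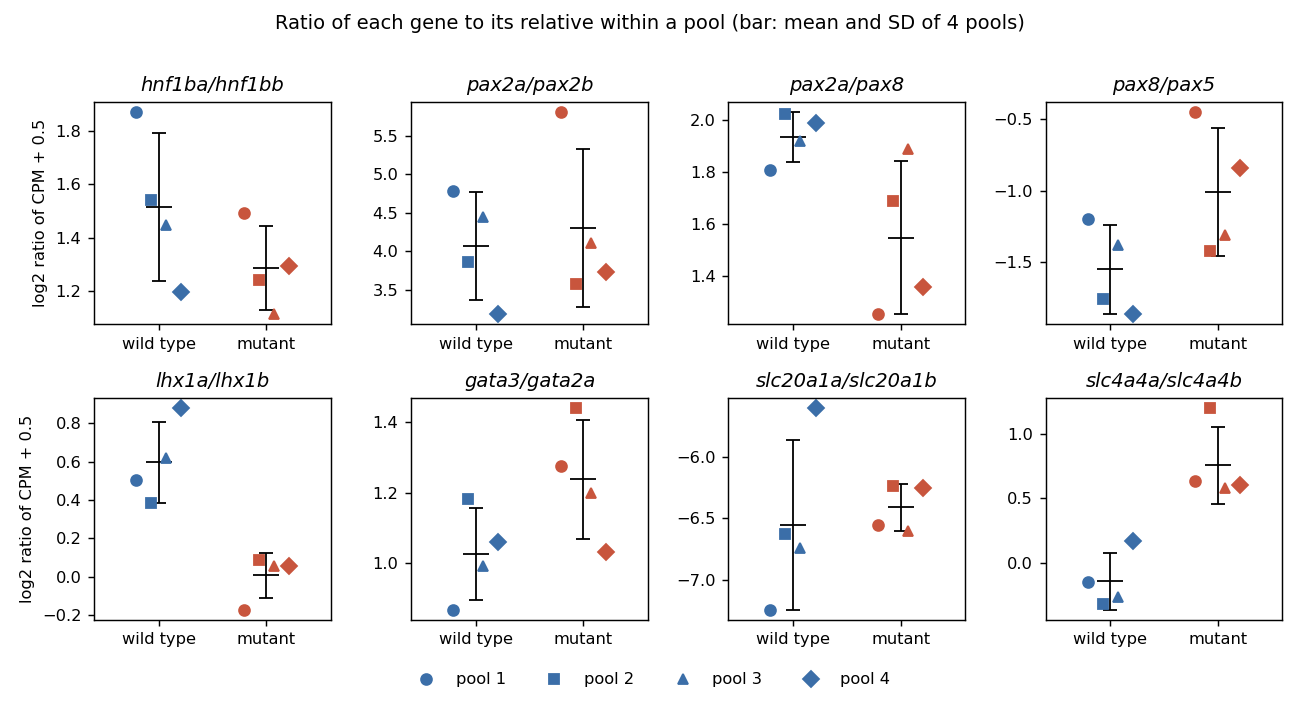
Log2 ratio of CPM + 0.5 (vertical axis) between a gene and its relative in each of the 4 wild-type pools (blue) and the 4 mutant pools (red), with the bar giving mean and SD. The genotypes separate for lhx1a/lhx1b (0.39 to 0.88 against −0.17 to 0.084) and for slc4a4a/slc4a4b (−0.33 to 0.17 against 0.58 to 1.21), and overlap for the other 6 pairs.

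Other genes of the pronephros were described through lists drawn from general knowledge. With all pools, the counts in these and the later lists stand beside 15.8% called higher and 16.3% lower among all tested genes. Of 18 further transcription factor genes, 4 were higher and 3 lower, with a median log2 fold change of 0.16. osr1, of an intermediate mesoderm factor, rose from 4.10 ± 1.59 to 11.1 ± 1.08 CPM (log2 fold change 1.43, adjusted p = 0.00365). irx1b, of the Iroquois family, rose from 42.7 ± 3.28 to 80.0 ± 8.45 CPM (log2 fold change 0.91, adjusted p = 0.000384). tfap2b, a distal nephron factor, fell from 17.6 ± 1.31 to 10.04 ± 0.936 CPM (log2 fold change −0.81, adjusted p = 0.00111). esrrga, an orphan nuclear receptor gene, fell from 9.93 ± 0.563 to 6.12 ± 0.637 CPM (log2 fold change −0.70, adjusted p = 0.00368). The genotypes did not overlap for any of these 4, which were named for the smallest p in their list. Genes without overlap made up 16.0% (higher) and 17.6% (lower) of all tested genes.

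Of 17 tested nephron transporter and channel genes, 2 were higher and 1 lower, with a median of 0.45. atp1b1a, a sodium pump beta subunit gene, rose from 148.5 ± 9.62 to 248 ± 7.05 CPM (log2 fold change 0.74, adjusted p = 0.00035). slc43a2b, an amino acid transporter gene, rose from 42.8 ± 26.9 to 214 ± 102.5 CPM (log2 fold change 2.32, adjusted p = 0.00645). slc15a2, a peptide transporter gene, was lower (20.3 ± 1.17 to 15.1 ± 1.48 CPM, adjusted p = 0.0161), a call that ended without wild-type pool 2 or 3 or mutant pool 4 (adjusted p from 0.0510 to 0.0545). slc12a1 stood at 0.437, 0.666, 0.667 and 3.17 CPM in wild type, against 3.53, 18.0, 4.02 and 2.36 CPM in the mutant. It was not called with all pools (log2 fold change 2.48, adjusted p = 0.0526), and was called without wild-type pool 4 (3.55, adjusted p = 0.0132), without mutant pool 1 (2.69, adjusted p = 0.0424) and by DESeq2 (2.52, adjusted p = 0.00495). It was also called with the ribosomal protein share in the fit (2.14, adjusted p = 0.0353) and without wild-type pool 4 and mutant pool 2 together (2.48, adjusted p = 0.00259). Without mutant pool 2 alone slc12a1 was not called (1.41, adjusted p = 0.161). Without wild-type pool 4 the list held 6 higher and 1 lower, and its median was 0.73. With mutant pool 2 also left out it held 5 higher and 1 lower, and its median was 0.50.

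Of 8 tested genes of proximal tubule endocytosis and the brush border, 3 were higher and 1 lower (median 0.59). enpep, an aminopeptidase gene, rose from 1.52 ± 0.456 to 4.16 ± 1.19 CPM (log2 fold change 1.44, adjusted p = 0.0071). The scaffold gene slc9a3r1a was higher, at 11.1 ± 2.79 and 18.2 ± 2.39 CPM (adjusted p = 0.018), and so was lrp2a, the megalin gene, at 57.4 ± 5.22 and 78.9 ± 14.5 CPM (adjusted p = 0.0388). cubn, the gene of megalin's partner cubilin, was lower, at 6.09 ± 0.439 and 4.08 ± 0.526 CPM (adjusted p = 0.0194). Leaving out single pools ended the call of slc9a3r1a for wild-type pools 1, 2 and 3 (adjusted p from 0.0521 to 0.0571). It ended that of cubn for wild-type pools 1 and 2 and mutant pool 3 (0.0562 to 0.0613), and that of lrp2a for 6 pools, all but wild-type pool 4 and mutant pool 1 (0.0906 to 0.101). With wild-type pool 4 and mutant pool 2 both left out, lrp2a was also not called (adjusted p = 0.0538).

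Among 8 tested genes of the pronephric duct and cloaca, 2 were higher and 3 lower (median −0.18). aqp3a, a water and glycerol channel gene also found in ionocytes and skin, fell from 16.9 ± 3.32 to 2.51 ± 0.606 CPM (log2 fold change −2.75, adjusted p = 9.16e-05). ret, a receptor kinase gene of the duct and of neurons, fell from 19.9 ± 1.104 to 12.05 ± 1.83 CPM (log2 fold change −0.72, adjusted p = 0.00322). The tight junction genes cldnb and cldnc rose, from 49.5 ± 8.90 to 93.7 ± 15.2 CPM and from 5.97 ± 2.58 to 17.97 ± 3.25 CPM (adjusted p = 0.0026 and adjusted p = 0.00348). Of 10 tested genes of multiciliated cells, which drive fluid along the tubule, 1 rose (etv4, 49.8 ± 3.89 to 70.5 ± 7.23 CPM, adjusted p = 0.00597) and 1 was lower (foxj1a, 24.9 ± 3.36 to 17.8 ± 2.45 CPM, adjusted p = 0.0298). The foxj1a call ended without wild-type pool 1, 2 or 3 or mutant pool 3 (adjusted p from 0.0702 to 0.0880). The genes rfx2 (adjusted p = 0.130) and foxj1b (0.117) were not called. rfx2 was called without mutant pool 1 (0.0144) and with the ribosomal protein share in the fit (0.0346). Over all 68 tested genes in these lists and the paralogs, 13 were higher and 10 lower. Among all tested genes 15.8% were called higher and 16.3% lower, so these counts are not read as a result about the pronephros.

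Genes of the glomerulus and of other cells that use the same factors were read beside these results. Of 6 tested podocyte genes, 2 rose: nphs1, the nephrin gene (1.45 ± 0.441 to 4.09 ± 0.870 CPM, adjusted p = 0.00344), and kirrel1b (6.05 ± 0.495 to 10.7 ± 0.866 CPM, adjusted p = 0.00173). podxl (adjusted p = 0.549) and wt1b (0.387) were not called. Among 10 genes of the midbrain-hindbrain boundary, where pax2a acts, 1 was higher and 3 lower. fgf8a rose (17.9 ± 0.939 to 35.9 ± 5.13 CPM, adjusted p = 0.000512), and the engrailed genes en2a (24.4 ± 1.95 to 11.7 ± 1.497 CPM, adjusted p = 0.000418), en1b (17.6 ± 3.01 to 4.70 ± 1.33 CPM, adjusted p = 0.00044) and en1a (7.87 ± 1.34 to 1.87 ± 0.570 CPM, adjusted p = 0.000627) fell. The summed level of that list was 189 to 206 CPM in wild type, against 155 to 188 CPM in the mutant.

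Markers of spinal and hindbrain neurons were read beside lhx1a, which was lower in the mutant, and gata3, which was higher (log2 fold change 0.79). Of 9 tested markers of KA and V2b spinal neurons, 7 were lower and 2 higher, with a median of −1.69, among them gad2 (11.2 ± 0.390 to 3.19 ± 0.542 CPM, adjusted p = 9.8e-05), gad1b (8.45 ± 2.50 to 0.973 ± 0.268 CPM, adjusted p = 0.000194) and pkd2l1 (7.32 ± 0.556 to 2.03 ± 0.546 CPM, adjusted p = 0.000502). urp1 fell from 1.29 ± 0.323 to 0.11 ± 0.067 CPM (adjusted p = 0.000781). The higher pair were gata2a and tal1 (25.0 ± 1.78 to 40.6 ± 3.79 CPM, adjusted p = 0.0012 for tal1). Both also serve in blood formation, and the cells that their counts came from were not tested. The summed level of that list was 90.5 to 108 CPM in wild type, against 77.5 to 87.6 CPM in the mutant. Of 8 markers of other neurons that use lhx1a, pax2a or pax8, 4 were lower and none higher, and lhx5, lbx1a, lbx1b and pax5 were not called. The glycine transporter gene slc6a5 (13.2 ± 2.77 to 5.48 ± 0.251 CPM, adjusted p = 0.000981) and prdm12b (53.7 ± 8.95 to 27.97 ± 7.38 CPM, adjusted p = 0.00848) were lower, besides en1b and lhx1b. That list summed to 141 to 173 CPM in wild type, against 93.6 to 118 CPM in the mutant. The part of these neurons in the levels of lhx1a and gata3 was not tested.

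Genes of the gut and of the yolk syncytial layer and liver were read beside cdh17, hnf1ba and hnf1bb. Of 6 tested gut endoderm genes, 4 were higher and none lower, with a median of 1.11. gata6 stood at 3.80, 2.23, 2.91 and 7.28 CPM in wild type, against 16.3, 47.5, 13.0 and 11.96 CPM in the mutant (adjusted p = 0.0097). foxa2 rose (15.5 ± 2.21 to 24.2 ± 2.17 CPM, adjusted p = 0.00586), and gata5 (7.16 ± 4.94 to 23.1 ± 10.6 CPM, adjusted p = 0.0255) and foxa1 (16.1 ± 1.41 to 21.0 ± 2.699 CPM, adjusted p = 0.0439) were higher. The gata5 call ended without wild-type pool 1, 2 or 3 or mutant pool 2 (0.0627 to 0.0724), and the foxa1 call in 6 of 8 fits that left out a pool, all but those without wild-type pool 4 or mutant pool 1 (0.0701 to 0.129). foxa1 was also not called without the low-count filter (0.0631) or without wild-type pool 4 and mutant pool 2 together (0.0532). The summed gut list measured 44.1 to 81.9 CPM in wild type, highest in pool 4, and 92.4 to 159.7 CPM in the mutant, highest in pool 2.

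Of 19 tested genes of the yolk syncytial layer and liver, 3 were higher with all pools (ambp, mttp and serpina1) and none lower. Without wild-type pool 4, 12 were higher, beside 17.3% of all tested genes. The median went from 1.38 to 2.51. The list was drawn up after the pools were seen, so its rise without wild-type pool 4 cannot be read as a test. With wild-type pool 4 and mutant pool 2 both left out the median was 1.97. In that fit 13 of the list were higher and 1 lower, beside 16.4% and 15.0% of all tested genes. mttp, which loads lipid onto apolipoprotein B, stood at 4.50, 3.88, 3.43 and 22.3 CPM in wild type, against 29.1, 90.7, 23.5 and 22.35 CPM in the mutant (adjusted p = 0.0451). The calls of mttp and serpina1 ended in 6 of the 8 fits that left out a pool, all but those without wild-type pool 4 or mutant pool 1 (0.0581 to 0.122 and 0.0615 to 0.129), and without the low-count filter (0.0581 and 0.0609). apoa1b was not called with all pools (adjusted p = 0.0612) and was called without wild-type pool 4 (0.00133) and by DESeq2 (0.0256). It was also called without wild-type pool 4 and mutant pool 2 together (0.000211), and not without mutant pool 2 alone (0.152). These values stand beside those of hnf1ba, hnf1bb and cdh17, and their part in them was not tested.

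In the ear list 3 of 9 tested genes were higher and 2 lower. oc90 (57.1 ± 17.6 to 137 ± 30.4 CPM, adjusted p = 0.00445) rose and otomp (20.2 ± 2.04 to 10.23 ± 1.69 CPM, adjusted p = 0.00152) fell. OTOP1 (adjusted p = 0.0196) and stm (0.032) were higher, but the first lost its call without wild-type pool 2 or 3 (0.0601 and 0.0597). stm lost its call in 5 of 8 such fits, those without wild-type pool 2 or 3 or mutant pool 2, 3 or 4 (0.0643 to 0.096). Of 9 tested ionocyte genes 1 was higher and 2 lower. atp1b1b fell from 37.7 ± 16.4 to 11.5 ± 6.79 CPM (adjusted p = 0.0133), ceacam1 from 3.11 ± 1.95 to 0.377 ± 0.469 CPM (adjusted p = 0.0173), and trpv6 was not called (adjusted p = 0.104). ca2 was higher (adjusted p = 0.0356), a call that ended in 5 of 8 fits, those without wild-type pool 1, 2 or 3 or mutant pool 2 or 4 (0.0516 to 0.0931). The 3 tested thyroid genes were higher: tg, thyroglobulin (0.313 ± 0.172 to 1.34 ± 0.246 CPM, adjusted p = 0.00492), nkx2.4b (11.01 ± 1.02 to 16.0 ± 1.22 CPM, adjusted p = 0.00761) and hhex (1.99 ± 0.630 to 4.27 ± 1.18 CPM, adjusted p = 0.0213). The hhex call ended without wild-type pool 2 or mutant pool 2 (0.0592 and 0.0504) and without wild-type pool 4 and mutant pool 2 together (0.0879). tg rested on 4 to 14 counts in the wild-type pools and 28 to 35 in the mutant pools. The listed thyroid genes tpo, slc5a5 and tshr had too few counts to be tested. Their wild-type and mutant means were 0.152 and 0.348 CPM for tpo, 0.105 and 0.722 CPM for slc5a5, and 0.155 and 0.0096 CPM for tshr. No listed gene was at 0 in all 8 libraries, and the part of these other cells in the levels of the 10 genes was not tested.

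**Figure D5:**
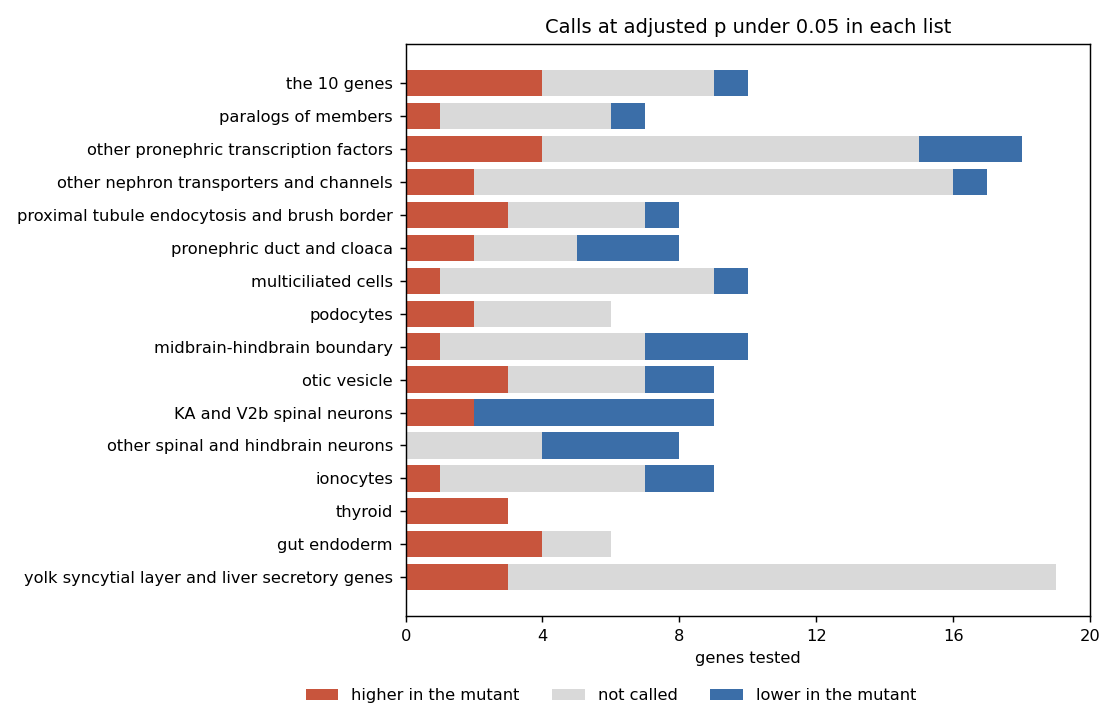
Number of tested genes (horizontal axis) in each list called higher in the mutant (red), not called (grey) or called lower (blue) at an adjusted p under 0.05 with all 8 pools. The 10 tubule genes show 4 higher and 1 lower, the KA and V2b neuron list 2 higher and 7 lower, and the gut endoderm list 4 higher and none lower.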

How the data were processed

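Per the submitters' processing notes, Trimmomatic, STAR 2.7 and RSEM were used with the build danRer11; settings, annotation and strandedness are not given there. The authors deposited 1 table of expected counts per gene, which were rounded to whole numbers; 18.7% of values were not whole, but none of those of the 10 genes. Low-count genes were removed with filterByExpr, TMM factors scaled the libraries, and a two-sided edgeR 4.0.16 test in R 4.3.3 compared genotypes (robust glmQLFit, glmQLFTest, Benjamini-Hochberg adjustment). DESeq2 1.42.0 served as an alternative. SE is the size of the log2 fold change over the square root of F. The procedure was tested on simulated data. Of 175 listed symbols, 172 were matched, 167 by symbol and the others by Ensembl identifier or RefSeq synonym (GRCz12tu). The 10 genes and the lists were chosen with earlier results of these data known, and the yolk and liver list after the pools were seen. Besides the 10 genes, their paired relatives and osgep, up to 4 genes per list with the smallest p are named (1 of them is not reported here), and atp1a1a.4 was chosen after its values were seen. No 2 libraries were within sampling noise (lowest chi-square per degree of freedom 5.80). The planned search for promoter motifs was not run, as no sequences were used here.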

Additional observations from a re-analysis of the deposited data

Results flagged for a closer look

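Within each genotype, the gap between the highest or lowest pool and its neighbour was divided by the range of the 4 pools and set against Dixon's 95% critical value. Of 140 sets of 4 pools tested, 18 held a pool past it, where chance gives about 1 in 20 for independent sets. The sets are not independent, and some come from the yolk and liver genes listed after these pools were seen, so the excess cannot be read as a test. Of those 18, 8 were wild-type pool 4 and 7 were mutant pool 2. Among the 10 tubule genes, the pools set apart were wild-type pool 4 of hnf1bb (7.24 CPM) and of cdh17 (57.3 CPM), and mutant pool 2 of cdh17 (93.4 CPM) and of slc12a3 (39.4 CPM).

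Among the other genes, wild-type pool 4 was set apart for slc12a1 (3.17 CPM), slc9a3r1a (15.2 CPM), ceacam1 (6.03 CPM), mttp (22.3 CPM), serpina1 (50.6 CPM) and apoa1b (907.8 CPM). Mutant pool 2 was set apart for slc12a1 (18.0 CPM), atp1b1b (21.7 CPM), gata6 (47.5 CPM), mttp (90.7 CPM) and serpina1 (204.0 CPM). The remaining pools were mutant pool 3 of slc20a1b (376 CPM), wild-type pool 1 of foxj1b (6.21 CPM) and mutant pool 1 of podxl, which was the low one (43.9 CPM).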

How the results depend on the processing

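The alternatives were RLE scaling, DESeq2, no filter, a stricter filter, no robust estimation, the ribosomal protein covariate and the replicate block. Others left out single pools, or wild-type pool 4 and mutant pool 2 together. Across all of these, no gene named here that was called in the edgeR fit with all pools changed sign. pax2a and pax2b, not called in that fit, did change sign. The log2 fold change of pax2b went from −0.21 to 0.21 without wild-type pool 4, and to 0.13 without mutant pool 1. With the ribosomal protein share as covariate the calls grew to 5648 higher and 6068 lower among all genes, and to 23 and 16 in the pronephric and paralog lists. The cause was not tested. Among the paired relatives this covariate added calls of slc4a4b (adjusted p = 0.000136), pax2b (0.0373), pax5 (0.0215) and slc20a1b (0.00581). DESeq2 also called slc20a1b (adjusted p = 0.0124). Leaving out single pools gave 2630 to 4080 higher and 2680 to 4522 lower among all genes. It gave 2 to 6 higher and 1 lower among the 10 genes, and 10 to 22 higher and 5 to 12 lower in the lists. For the 10 genes these fits gave 80 results, counting each gene with each pool left out. A call was lost in 8 of them, 5 for hnf1bb and 3 for slc12a3, and gained in 2. Only a gene called with all pools could lose a call, so the 80 results are not the base for the losses. For the 10 genes, the other alternatives lost no call and gained 3. The replicate numbers were not taken to pair the pools, since same-numbered pools correlated at 0.651, 0.169, −0.266 and 0.0895. With the replicate block, 4 of the 10 genes were higher and 1 lower. The hnf1ba/hnf1bb ratio differed by −0.23, a mean difference that pairing the pools cannot change (4 pairs cannot give an exact permutation p below 0.125). The block ended the calls of lhx1b, cubn, foxj1a, stm, gata5, foxa1, mttp and serpina1 (adjusted p from 0.0512 to 0.0828) and added slc4a4b (0.0445). Of the paralog ratios, pax2a/pax2b changed sign without wild-type pool 4 (−0.064) or mutant pool 1 (−0.27), and slc20a1a/slc20a1b without wild-type pool 1 (−0.087); neither had passed its test. slc20a1a had the fewest counts of the 10 genes, and how far depth limits it was not tested.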
